A study of Mus musculus with 6 samples.

Results

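Exonic peaks were taken from an ATAC-seq table of mouse liver, an assay of open chromatin in which a peak is a stretch that a transposase cut often. They are all peaks whose deposited annotation begins with the word exon. There were 1731 of them, or 7.72% of 22412 peaks, in 1648 genes. The Dyrk1b livers carried an adenovirus for Dyrk1b, a protein kinase, and the control livers one for EGFP, a fluorescent protein. Each group has 3 libraries, and every library comes from a liver that received a virus. The labels name no strain, sex, age, dose or time after the virus. Whole liver holds several cell types, and a lower signal at a peak cannot be told apart from fewer cells of the type that opens it. Whether each replicate is its own mouse is not stated, and the p-values below rest on the spread of 3 libraries per group, part of which may be technical. The 2 exonic peaks of Dyrk1b itself, exons that the viral cDNA may carry too, are given apart, and 1729 peaks remain. Counts stated for all 1731 exonic peaks, by exon number, by gene and by symbol, include them.

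Open chromatin in a genome lies mostly at promoters and enhancers, where bound proteins displace nucleosomes. Exons in the interior of a gene are usually covered by nucleosomes. The exon at the start of a transcript is different, because the open region around a start site often reaches into it. Where a transcript has no annotated untranslated region, as in noncoding RNAs, its first bases can only be annotated as exon. Exonic peaks can therefore be of more than 1 kind, and exon position and distance from the start separate them.

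Most exonic peaks lay near the start of their annotated transcript, and a minority lay deep in the gene body. The middle of the peak lay within 3 kb of the start of the annotated transcript for 1272 of the 1729 peaks (73.6%), and further in for 457. By the deposited distance, which can refer to another start, 604 lay beyond 3 kb. Exon 1 held 1098 of all 1731 exonic peaks (63.4%), exon 2 held 237, exon 3 held 99, exons 4 to 10 held 192 and higher exons 105. The highest exon number was that of Pkhd1, the gene of fibrocystin, with a peak in exon 67 of 67. The largest exon total was that of Lrp1, an endocytic receptor of hepatocytes, with a peak in exon 34 of 89.

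Because many exonic peaks held a transcript start, 816 of 1731 (47.1%), the sequence around the start is shown for the named genes whose first-exon peak held the start and whose RefSeq gene had nearly the same length as the transcript in the table. Each window runs from 250 bases before to 50 bases after the RefSeq start, in build GRCm38.p6, 5′ to 3′ on the strand of the gene. Capitals mark GGGCGG or its reverse complement CCGCCC, the GC box that transcription factors of the SP family can bind.
Itih3, an inter-alpha-trypsin inhibitor heavy chain that liver secretes (chr14:30923538-30923837, minus strand): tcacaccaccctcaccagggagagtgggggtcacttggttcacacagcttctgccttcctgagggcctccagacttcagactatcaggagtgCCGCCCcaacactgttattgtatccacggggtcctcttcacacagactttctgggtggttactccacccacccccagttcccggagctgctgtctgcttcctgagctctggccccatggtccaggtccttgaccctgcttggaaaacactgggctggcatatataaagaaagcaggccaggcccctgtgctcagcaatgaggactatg
Dync1li1, a light intermediate chain of the dynein motor (chr9:114688581-114688880, plus strand): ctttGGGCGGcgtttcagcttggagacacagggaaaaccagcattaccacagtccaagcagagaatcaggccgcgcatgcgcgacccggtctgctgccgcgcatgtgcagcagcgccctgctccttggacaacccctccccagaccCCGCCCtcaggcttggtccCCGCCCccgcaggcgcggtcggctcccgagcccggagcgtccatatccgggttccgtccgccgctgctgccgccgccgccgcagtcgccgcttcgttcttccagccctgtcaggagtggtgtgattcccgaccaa
1110059G10Rik, listed by its clone name (chr9:122950951-122951250, minus strand): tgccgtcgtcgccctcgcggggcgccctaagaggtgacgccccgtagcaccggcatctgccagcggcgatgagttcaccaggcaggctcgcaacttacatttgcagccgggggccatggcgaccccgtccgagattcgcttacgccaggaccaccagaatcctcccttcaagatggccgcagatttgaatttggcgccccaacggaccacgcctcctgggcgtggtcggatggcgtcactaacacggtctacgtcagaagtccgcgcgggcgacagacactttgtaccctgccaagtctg
The Itih3 window had 3 CpG dinucleotides and 1 GC box, with 57% GC. That of Dync1li1 had 31 CpG and 3 GC boxes, with 68% GC. The 1110059G10Rik window had 31 CpG and no GC box, with 63.7% GC. If the starts coincide, the peak covered 56 bases of the Itih3 window, all 300 bases of the Dync1li1 window and 114 bases of the 1110059G10Rik window.

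The start windows of genes with exonic peaks had more CpG than promoters at large, as did those of genes with peaks at the 5′ untranslated region. The transcript start lay inside the peak for 740 of the 900 first-exon peaks (82.2%). Of the 537 symbols of these genes, 429 matched the RefSeq table, with 522 windows. Their median was 19 CpG and 59.3% GC, against 7 CpG and 52.7% GC over all 32851 windows. GGGCGG, read on both strands, was found in 61.7% of these windows and in 35.7% of all windows. CCGGAAG, the core of the site of ETS factors, was in 23.4% and 8.86%, and TATAAA in 7.09% and 13.6%. CCAAT was in 38.1% and 37.4%, and CACGTG, an E-box, in 8.24% and 7.15%. Overlaps between motifs were not removed, and a match describes letters only. Genes whose exonic peaks lay after the first exon had a median of 17 CpG and 59.7% GC, and held GGGCGG in 56.7% and CCGGAAG in 12.7% of 379 windows. Genes with peaks at the 5′ untranslated region had 19 CpG and 60.3% GC, and held GGGCGG in 62% and CCGGAAG in 18% of 3115 windows.

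First exons were the largest class. A peak was called single where the transcript has 1 exon, first in exon 1 of several, early internal up to the middle of the exon count, late internal beyond it, and last in the final exon. There were 900 first, 279 last, 198 single, 193 late internal and 159 early internal peaks. All 900 first-exon peaks lay within 3 kb of the start, with a median distance of 138.5 bases. This nearly follows from the measure, since the distance is taken from the start of the transcript whose first exon holds the peak. By the deposited distance, which can refer to another start, 100 of the 900 lay beyond 3 kb. Of single-exon peaks 191 lay within 3 kb. The 3 later classes had 105 early internal, 163 late internal and 182 last peaks beyond 3 kb. First-exon peaks were also wider, with a median of 607 bases, against 431 for the 631 peaks after the first exon. The median level per peak, not divided by this width, was 48 CPM for first exons and 32.8 CPM for later exons. CPM here is the usual read count per fixed number of reads, taken over the reads in peaks of a library and scaled by TMM.

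**Figure D1:**
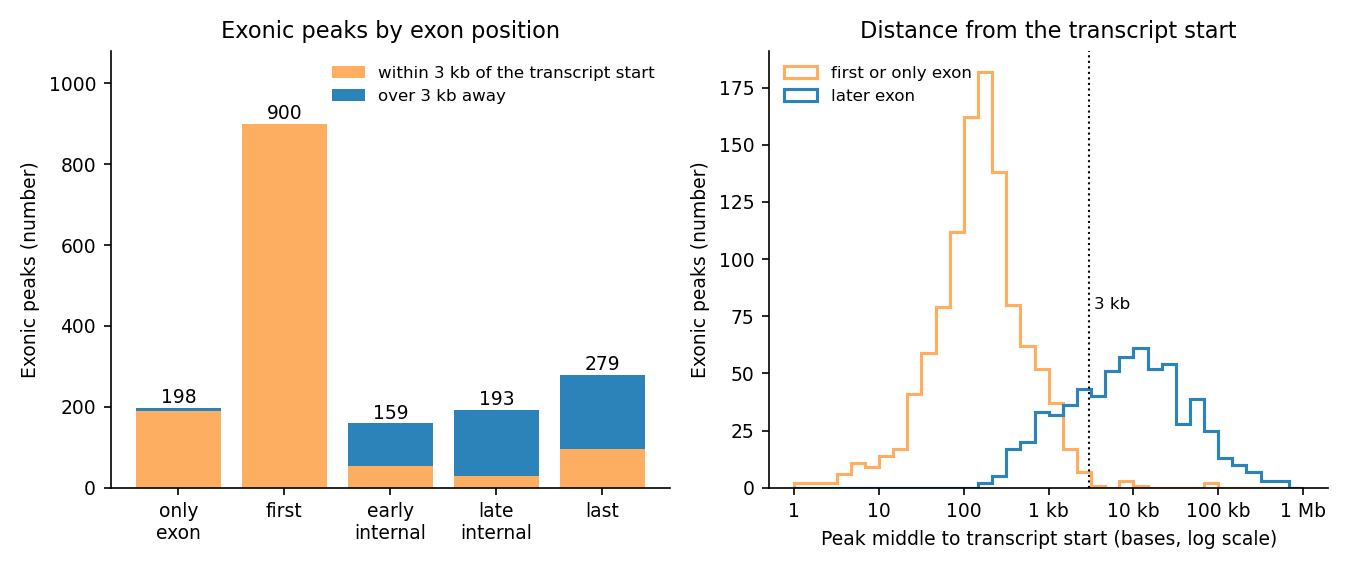
Left, the number of exonic peaks in each exon position, split by whether the peak middle is within 3 kb of the start of its transcript. Right, the distance from the transcript start on a log scale for first or only exons and for later exons. First exons, 900 peaks, all lie within 3 kb, which nearly follows from measuring to the start of the same transcript. Most late internal peaks, 163 of 193, lie beyond 3 kb.

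Many exonic peaks belonged to genes without a symbol, a share that was not counted over all peaks. The table gives no symbol for the genes of 622 of the 1731 (35.9%), and 39 more belong to predicted genes with Gm or Rik names. Genes that the table places in a transcription factor family held 3.12% of the exonic peaks and 6.63% of all peaks. Most genes had 1 exonic peak, 77, Dyrk1b among them, had at least 2 and 5 had at least 3. One of these 5 is Celsr3, a cadherin-related receptor of planar cell polarity, with peaks in exons 1, 24 and 33 of 35. The other 4 have no symbol. Exons of the histone genes held 0 peaks.

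No exonic peak outside Dyrk1b passed the threshold, an adjusted p under 0.05 in edgeR's quasi-likelihood test. Over all 22051 peaks tested, 7 did (0.0317%), 2 of them higher (0.00907%), Dyrk1b exon 9 included, and 5 lower (0.0227%) in Dyrk1b livers. Of the 1729 exonic peaks, 1713 passed the filter on low counts and were tested, and 16 were removed. At an unadjusted p under 0.05, 105 (6.13%) were higher, against 6.44% of all peaks, and 113 (6.6%) were lower, against 7.72% of all peaks. Scaled by the library totals behind the RPKM values, these counts were 118 higher and 20 lower, under a scaling that moves the median of all peaks by 0.17 on the log2 scale. The 2 groups did not overlap for 159 exonic peaks with Dyrk1b higher (9.28%) and for 159 with Dyrk1b lower (9.28%), against 9.53% and 9.97% of all peaks. The median log2 change, Dyrk1b over control, was 0.01 for exonic peaks, with 881 of 1713 above 0, and 0.00 for all peaks. The limma-trend fit also called 0 of these peaks. DESeq2 called 0 as well, but it gave no adjusted p to part of the weaker peaks. Sec31b, Irx6 and Htra1, described below, were among those that it could not call. At an unadjusted p under 0.05 DESeq2 had 91 higher and 108 lower, and limma-trend 106 higher and 109 lower.

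Exons after the first had more values above 0 than first exons. The median log2 change was 0.18 for early internal, 0.18 for late internal and 0.12 for last exons. It was -0.04 for first and -0.04 for single exons. Above 0 were 103 of 157 early internal peaks (65.6%), 119 of 187 late internal (63.6%) and 161 of 273 last (59%). Of first-exon peaks 413 of 899 (45.9%) were above 0, and of single-exon peaks 85 of 197 (43.1%). Introns had a median of 0.05, promoters within 1 kb -0.11, the 5′ untranslated region -0.05 and the 3′ untranslated region 0.07. Over the 617 later exons tested, 54 (8.75%) were higher and 29 (4.7%) lower at an unadjusted p under 0.05. Over first exons these counts were 37 (4.12%) and 68 (7.56%).

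**Figure D2:**
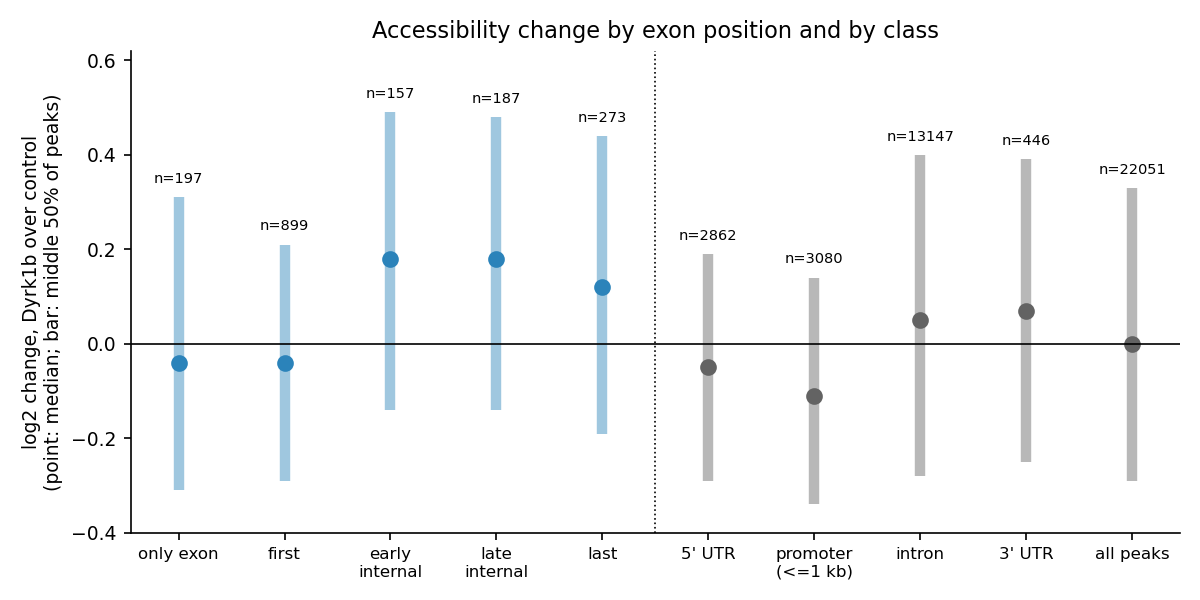
The log2 change, Dyrk1b over control, for each exon position (blue) and for other classes (grey), with the median as a point, the middle 50% of peaks as a bar and the number tested above it. Early and late internal exons have a median of 0.18, first exons -0.04 and introns 0.05, and every bar spans 0.

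Later exons had a lower mean log2 CPM than first exons in every library, and the gap was smaller in Dyrk1b livers. CPM is not divided by peak width, and peaks of first exons were wider, with a median of 607 bases against 431. The part of width in the gap was not tested, so it does not show less open chromatin per base. The mean log2 CPM of later exons minus that of first exons was -0.36, -0.41 and -0.38 in Dyrk1b libraries 1 to 3, and -0.56, -0.52 and -0.55 in control libraries 1 to 3. The groups did not overlap, and their means differed by 0.16 (p = 0.1, two-sided exact permutation test). An adjusted p of 0.14 resulted over the 7 contrasts made, and 0.1 is the smallest p that 3 against 3 libraries allow. The contrasts were chosen after the data were seen. Peaks beyond 3 kb minus peaks within 3 kb gave -0.39, -0.44 and -0.38 in Dyrk1b libraries, against -0.60, -0.53 and -0.57 in control libraries, again a difference of 0.16 with p = 0.1 in the exact test. A loess scaling, made to reduce a trend of the change with peak strength, left 0.06 of each of these differences (p = 0.1, exact permutation test). Part of that trend stayed in later exons after the scaling, as the quartiles given below show.

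Later exons were also set against introns, which lie inside the gene too. The 2 classes were not matched for place, with a median of 74.1% along the transcript for later exons and 40.5% for introns. The mean log2 CPM of later exons exceeded that of the 13147 intronic peaks by 0.13, 0.12 and 0.10 in Dyrk1b libraries, against 0.04, 0.03 and 0.03 in control libraries. The difference of 0.08 (p = 0.1, exact permutation test, adjusted p = 0.14) was 0.10 after loess scaling. First exons differed from promoter peaks within 1 kb by 0.06, -0.02 and 0.03 in Dyrk1b libraries, against -0.02, -0.04 and -0.07 in control libraries, a difference of 0.06 with p = 0.1 in the exact test. Against the 5′ untranslated region the gap of first exons was -0.04, -0.11 and -0.06 in Dyrk1b libraries, and -0.07, -0.08 and -0.10 in control libraries. These last groups overlap, and the difference of 0.01 had p = 0.6 in the exact permutation test.

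**Figure D3:**
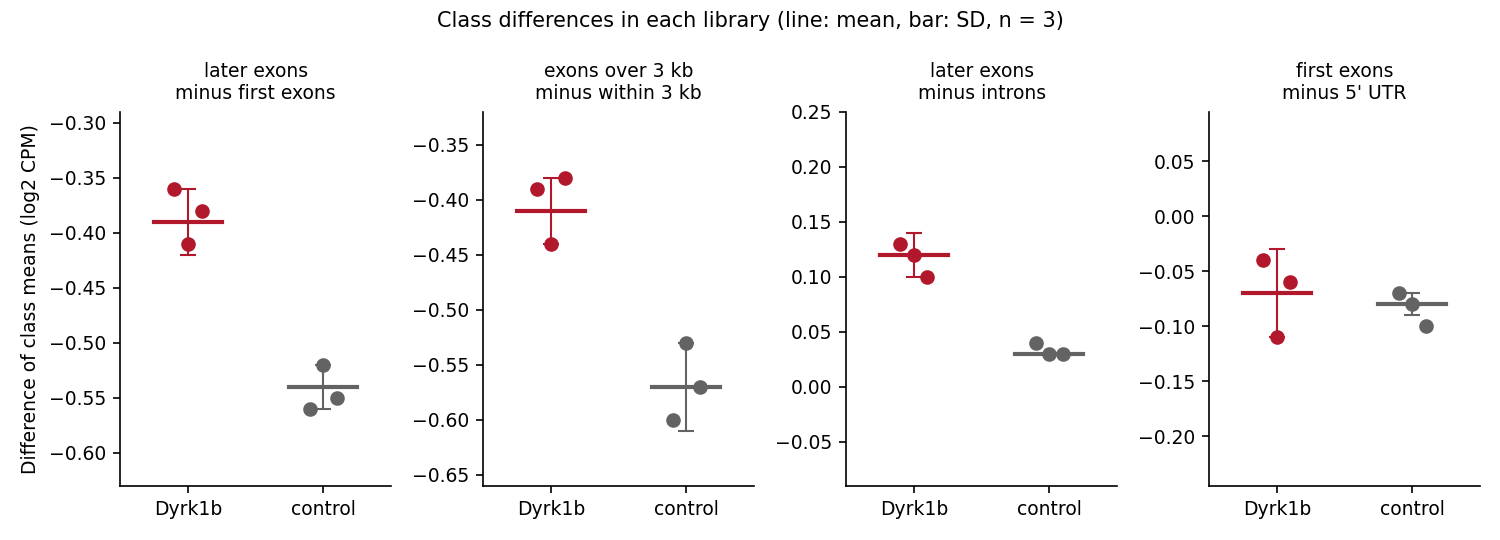
Difference between the mean log2 CPM of 2 peak classes in each library, with Dyrk1b libraries in red and control libraries in grey, the mean as a line and the SD as a bar (n = 3 each). The groups do not overlap for later minus first exons, beyond minus within 3 kb, and later exons minus introns, and overlap for first exons minus the 5′ untranslated region. Each panel spans the same height on its own axis range.

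The change went with the strength of the peak. In quartiles of mean CPM over the 6 libraries, the median log2 change of exonic peaks was 0.35 in the lowest (up to 28.1 CPM), 0.06 in the second, -0.04 in the third and -0.12 in the highest (from 60.8 CPM). Later exons made up 234 of the 429 peaks in the lowest quartile and 73 of the 428 in the highest. Within the lowest quartile later exons had a median of 0.44 and first exons 0.24, and in the second 0.11 and 0.01. In the third quartile the medians were -0.03 and -0.04, and in the highest -0.12 for both. Peaks outside exons in the same ranges had 0.27, 0.03, -0.09 and -0.16. After loess scaling later exons had 0.21, 0.10, 0.05 and 0.03 from the lowest quartile up, and first exons 0.04, -0.01, 0.05 and 0.03. The part of peak strength in the difference between exon positions was not tested beyond these values.

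**Figure D4:**
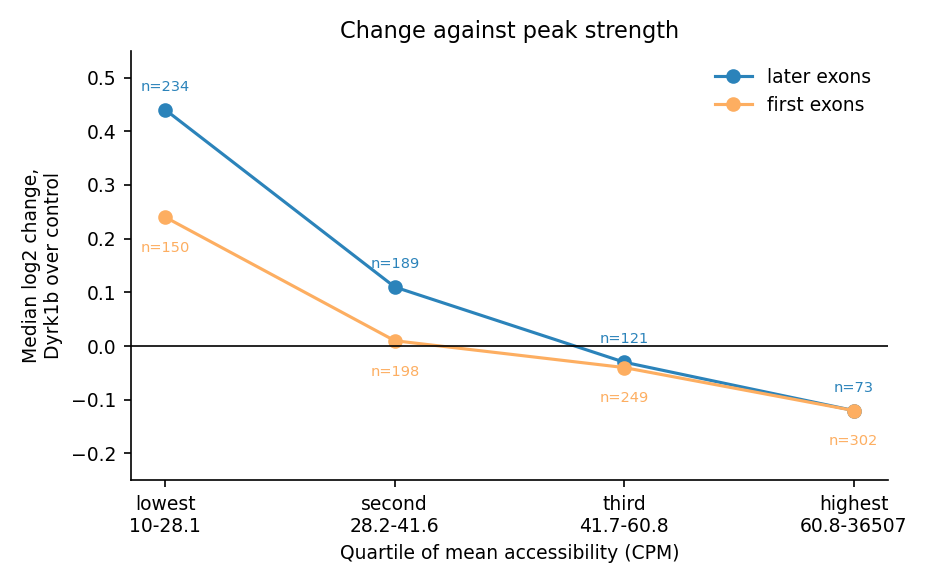
Median log2 change, Dyrk1b over control, of later exons (blue) and first exons (orange) in quartiles of the mean CPM over the 6 libraries, with the number of peaks beside each point. The medians are 0.44 and 0.24 in the lowest quartile and -0.12 for both in the highest.

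The medians depended on the scaling. With the library totals behind RPKM, the median was 0.12 for first exons and 0.32 for later exons, under the shift of 0.17 for all peaks. After loess scaling it was 0.03 for first and 0.11 for later exons, and with library size alone 0.00 and 0.20. The sign for first exons therefore depends on the scaling, and that for later exons was above 0 in each of these scalings.

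The 1 exonic peak called was in Dyrk1b itself, in exon 9 of 11 (chr7:27885143-27885495). Peak positions are those of the table, which mostly lie outside the same genes in GRCm38, and no other build was compared. It had 27, 30 and 53 reads in Dyrk1b libraries 1 to 3, against 10, 1 and 3 in control libraries 1 to 3. No count in the table is under 1, so the 1 read of control library 2 may stand for an empty peak. That is 36.5 ± 3.86 CPM and 5.66 ± 5.44 CPM (SD, n = 3 each), with no overlap. The log2 change was 2.64 ± 0.50 (SE, adjusted p = 0.00981 in edgeR). The call was lost without control replicate 2 (adjusted p = 0.114), control replicate 3 (0.0881) or Dyrk1b replicate 3 (0.167), and in limma-trend (0.0669), with log2 changes of 2.17 to 2.56. Without control replicate 1 the log2 change was 3.77 (adjusted p = 0.00296 in edgeR).

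Exon 11 of 11, the last exon (chr7:27885966-27886297), had 33, 28 and 39 reads in Dyrk1b libraries, against 9, 9 and 9 in control libraries. Its 34.9 ± 7.74 CPM and 11.2 ± 0.806 CPM did not overlap. The log2 change was 1.61 ± 0.42, and the adjusted p of 0.107 missed the threshold. Together the 2 exons took 0.00719 ± 0.000653% of reads in peaks in Dyrk1b livers, against 0.00166 ± 0.000521% in control livers (p = 0.1, exact permutation test). In the authors' deposited table, which works on RPKM, the log2 ratios are 2.78 for exon 9 and 1.76 for exon 11. The authors' deposited table gives them an FDR of 0.0652 and 0.272. Reads from viral cDNA and reads from the gene's own chromatin cannot be told apart in these counts.

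Outside Dyrk1b the top-ranked peaks with a higher level in Dyrk1b livers were mostly internal or last exons. None of the following passed the threshold in edgeR. In both directions the ranking took only peaks whose groups do not overlap, so the lack of overlap at them adds no support. Sec31b, a paralog of a COPII coat subunit of vesicles leaving the endoplasmic reticulum, had its peak in exon 21 of 26, chr19:44507512-44508135. Its levels were 65, 37.5 and 51.4 CPM in Dyrk1b libraries, against 23.4, 24.3 and 14.8 CPM in control libraries, with no overlap. The log2 change was 1.28 ± 0.33 (adjusted p = 0.105). Its 2 intronic peaks had 0.64 ± 0.50 and 0.02 ± 0.39.

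Irx6, an Iroquois homeobox transcription factor, had a peak in exon 5 of 6, chr8:93404962-93405363, its only peak. It had 55.7, 23.2 and 25.3 CPM in Dyrk1b libraries, against 9.38, 6.07 and 14.8 CPM in control libraries. The first Dyrk1b library was well above the other 2, and the log2 change was 1.75 ± 0.46 (adjusted p = 0.107 in edgeR). Armcx4, an armadillo repeat gene of the X chromosome, had 27.9, 34.2 and 24.6 CPM in its last exon, 6 of 6, in Dyrk1b libraries. The control libraries had 9.38, 7.29 and 10.8 CPM. As the ranking required, the lowest Dyrk1b value was more than the highest control value, at a log2 change of 1.64 ± 0.48 (adjusted p = 0.14 in edgeR).

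Unc45b, a chaperone for folding myosin in muscle, had 25.2, 36.4 and 32.2 CPM in exon 12 of 20 in Dyrk1b libraries, against 5.86, 12.1 and 16.1 CPM in control libraries. Its log2 change was 1.47 ± 0.44 (adjusted p = 0.155 in edgeR), while its 2 intronic peaks had 0.19 ± 0.31 and 0.23 ± 0.46.

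Among first exons, Htra1 and Cavin1 ranked highest on the higher side. Htra1, a secreted serine protease, had 27.9, 32 and 29.9 CPM in exon 1 of 9 in Dyrk1b libraries, against 9.38, 7.29 and 12.1 CPM in control libraries. The peak middle lay 464 bases after the start, and the log2 change was 1.64 ± 0.46 (adjusted p = 0.132 in edgeR). Cavin1, a coat protein of caveolae, had 58.4, 51.8 and 38.4 CPM in exon 1 of 2 in Dyrk1b libraries, against 22.3, 23.1 and 28.2 CPM in control libraries. Its peak middle lay 866 bases in, and the log2 change was 1.0 ± 0.31 (adjusted p = 0.175 in edgeR). The intronic peak of Cavin1 had the other sign, -0.49 ± 0.38. The files give no symbol for the other 4 of the 10 top-ranked genes on this side, of which ENSMUSG00000090191 had 1.43 ± 0.44 in exon 3 of 3 and ENSMUSG00000097368 had 1.06 ± 0.33 in exon 2 of 3.

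On the lower side the lowest p belonged to a first exon. ENSMUSG00000116974, for which the files give no symbol, had 37.2, 34.2 and 29.2 CPM in exon 1 of 4 in Dyrk1b libraries, against 75, 70.5 and 65.9 CPM in control libraries. The log2 change was -1.09 ± 0.26 (adjusted p = 0.0966 in edgeR). Both groups were tight, which a ranking by p favours, so this adds no support. The peak middle lay 6 bases from the start. ENSMUSG00000093394, also without a symbol, had -0.88 ± 0.22 in exon 1 of 2 (adjusted p = 0.105).

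Fdft1, squalene synthase, which makes the first committed sterol precursor, had its peak over the start in exon 1 of 7, chr14:63401731-63402610. It had 57.1, 34.2 and 53 CPM in Dyrk1b libraries, against 109, 80.2 and 69.9 CPM in control libraries. All Dyrk1b values were below all control values, which the ranking required, at a log2 change of -0.85 ± 0.25 (adjusted p = 0.14 in edgeR). Its intronic peak had -0.28 ± 0.34.

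Rit1, a small GTPase of the Ras family, had 23.9, 19.8 and 15.4 CPM in exon 2 of 6 in Dyrk1b libraries, against 45.7, 46.2 and 37.6 CPM in control libraries. The log2 change was -1.16 ± 0.34 (adjusted p = 0.144 in edgeR). Its peak in the 5′ untranslated region at the start had 0.03 ± 0.36. At Rit1, as at the other top-ranked genes, the exonic peak was picked for its low p and the neighbouring peaks were not. Differences between peaks of a gene were not tested. Setd4, a SET-domain methyltransferase, had 69, 56.2 and 51.4 CPM in exon 6 of 12 in Dyrk1b libraries, against 83.2, 94.7 and 133 CPM in control libraries. The log2 change was -0.82 ± 0.23 (adjusted p = 0.132 in edgeR). In exon 7 of Setd4 it was 0.09 ± 0.32, and in an intron near the start -0.50 ± 0.21.

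Synpo, an actin-associated protein, had 62.4, 54 and 83.7 CPM in its last exon, 4 of 4, in Dyrk1b libraries, against 130, 107 and 128 CPM in control libraries. The log2 change was -0.85 ± 0.22 (adjusted p = 0.107 in edgeR). Synpo has 9 peaks in the table. Introns had -0.93 ± 0.36, -0.54 ± 0.25, -0.25 ± 0.25, -0.03 ± 0.28 and 0.24 ± 0.29, the 5′ untranslated region -0.63 ± 0.39, the promoter -0.45 ± 0.27 and exon 3 of 3 of another transcript 0.22 ± 0.33. The other genes among the 10 top-ranked on the lower side have no symbol.

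**Figure D5:**
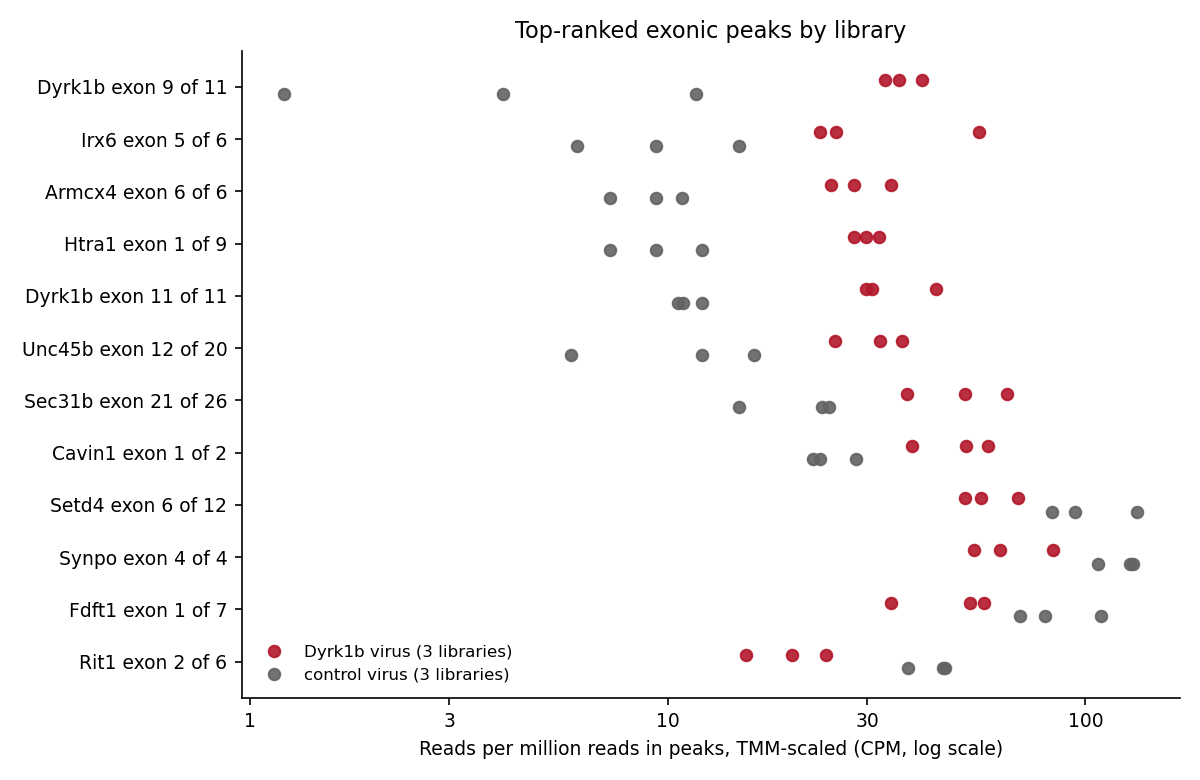
CPM of the Dyrk1b exons and of the top-ranked exonic peaks with a symbol, in each library on a log axis, with Dyrk1b libraries in red above control libraries in grey. The groups do not overlap at any of these peaks, which the ranking required for all but Dyrk1b, and Dyrk1b exon 9 is the 1 peak past the threshold.

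Exons of liver genes were few among the peaks. With 0.0317% of all peaks called, lists as short as these were likely to hold no call. Of the secreted plasma proteins 3 genes had an exonic peak, with a median log2 change of -0.11, 1 of 3 above 0 and none called, against 0.00 for all peaks. Alb, serum albumin, had a peak in exon 8 of 15 with 38.5, 58.4 and 59.1 CPM in Dyrk1b libraries, against 92.6, 31.6 and 45.7 CPM in control libraries. These overlap, and the log2 change was -0.11 ± 0.28. Itih3, shown above, had -0.20 ± 0.25 in exon 1 of 22, and F12, coagulation factor XII, 0.10 ± 0.25 in exon 13 of 14. Cidec, a lipid droplet protein, had 39.8, 48.5 and 37.6 CPM in exon 5 of 6 in Dyrk1b libraries, against 84.4, 43.7 and 69.9 CPM in control libraries. Its groups overlap, at -0.66 ± 0.27 (adjusted p = 0.268 in edgeR). Lrp1 had -0.26 ± 0.34, and these were the 2 exonic peaks of the metabolic list, none called. Yap1, the Hippo pathway coactivator, was the 1 gene of the Hippo and Wbp2 list with an exonic peak other than Dyrk1b. It had 25.2, 27.6 and 39.9 CPM in exon 1 of 3 in Dyrk1b libraries, against 64.5, 40.1 and 32.3 CPM in control libraries, at -0.54 ± 0.31.

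Larger gene families held no call either, which says little of them where 0.0317% of all peaks were called. The 24 exonic peaks of solute carriers had a median log2 change of 0.00, with 13 above 0. Slc2a10, the glucose transporter GLUT10, had 30.5, 16.5 and 23 CPM in exon 2 of 5 in Dyrk1b libraries, against 3.52, 9.72 and 9.41 CPM in control libraries, at 1.62 ± 0.56 (adjusted p = 0.206 in edgeR). Slc39a4, a zinc importer, had -0.56 ± 0.23 in its first exon, and Slc44a1, a choline transporter-like protein, -0.42 ± 0.21. The 15 zinc finger peaks had a median of 0.02, with 9 above 0. Of these Zfp541 had 0.82 ± 0.46, Zfp773 -0.57 ± 0.30 and Zfp282 -0.45 ± 0.26.

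Genes named as kinesins, dyneins or by the letters Myo or Myh had 9 exonic peaks, 8 of them tested, with a median of 0.15 and 7 above 0. Kif26b, a kinesin family member, had 59.7, 48.5 and 20.7 CPM in exon 2 of 15 in Dyrk1b libraries, against 16.4, 26.7 and 14.8 CPM in control libraries. The third Dyrk1b library lay within the control range, at 1.10 ± 0.37 (adjusted p = 0.193 in edgeR). Myom3, a myomesin of the sarcomere, had 0.75 ± 0.38 in exon 18 of 37, and Dync1li1, shown above, 0.19 ± 0.22 in exon 1 of 13. The 5 cadherin-related peaks had a median of 0.44, with 4 above 0. In Celsr3 the values were -0.19 ± 0.37 in exon 1, 0.44 ± 0.31 in exon 24 and 0.53 ± 0.36 in exon 33, and Fat2 had 0.68 ± 0.39 in exon 23 of 24.

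Both collagen peaks overlapped between groups, Col5a3 in exon 8 of 67 at -0.22 ± 0.24 and Col20a1 in exon 9 of 34 at 0.17 ± 0.44. Adam24, a testis ADAM gene, had 0.34 ± 0.41 in exon 2 of 2, and the olfactory pseudogene Olfr718-ps1 0.34 ± 0.25. The 39 peaks of predicted genes had a median of 0.07, with 23 above 0. Gm42878 had 7.96, 6.62 and 2.30 CPM in exon 10 of 15 in Dyrk1b libraries, against 22.3, 24.3 and 22.9 CPM in control libraries, at -2.10 ± 0.61 (adjusted p = 0.14 in edgeR). 1110059G10Rik, whose window is shown above, had 17.3, 9.92 and 22.3 CPM in Dyrk1b libraries, against 30.5, 41.3 and 44.4 CPM in control libraries, at -1.19 ± 0.37 (adjusted p = 0.167 in edgeR). Gm36210 had -1.06 ± 0.43 in exon 2 of 2.

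A single exonic peak held a large part of all exonic reads. Gm10800 exon 4 of 5 (chr2:98496528-98497745) took 5.30%, 3.42% and 2.94% of reads in peaks in Dyrk1b libraries 1 to 3, against 1.79%, 4.36% and 3.93% in control libraries 1 to 3. The groups overlap, and the log2 change was 0.18 ± 0.64. The mean of this peak was 36507 CPM, against a median of 41.6 CPM over exonic peaks. Whether open chromatin gave reads at this level was not tested. Gm10717 and Gm10801 were also among the 8 peaks with the highest CPM, with 0.21 ± 0.29 and 0.19 ± 0.27. Hjurp, a chaperone of the centromeric histone CENP-A, had 419 ± 8.51 CPM in exon 2 of 8 in Dyrk1b livers and 461 ± 42.4 CPM in control livers (SD, n = 3 each), at -0.14 ± 0.22. Fkbp2, a prolyl isomerase of the endoplasmic reticulum, had -0.19 ± 0.21 in exon 1 of 6, and Tmem254, a transmembrane protein, 0.02 ± 0.22 in exon 1 of 4.

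The exonic share of all reads in peaks was 13.6%, 11.7% and 11.3% in Dyrk1b libraries, against 10.2%, 12.5% and 12.2% in control libraries, a difference of 0.56 percentage points (p = 0.6, exact permutation test). Without Gm10800 it was 8.73%, 8.61% and 8.60% in Dyrk1b libraries, against 8.58%, 8.55% and 8.57% in control libraries. These values do not overlap, and differ by 0.0797 points (p = 0.1, exact permutation test). Next, 6 genes listed by name were left out, namely Gm10800, Gm10801, Gm10717, Gm10720, Gm11168 and 1 without a symbol. They were not taken by a cut on signal. Hjurp, at a mean of 440 CPM, was kept, and Gm10801, at 421 CPM, was not. Without the peaks of the 6 genes the share was 8.52%, 8.49% and 8.48% in Dyrk1b libraries, against 8.51%, 8.38% and 8.41% in control libraries. Then the groups overlap, with a difference of 0.0617 points (p = 0.3, exact permutation test). Exonic peaks beyond 3 kb took 1.69%, 1.64% and 1.72% in Dyrk1b libraries, against 1.59%, 1.6% and 1.57% in control libraries, a difference of 0.0963 points with p = 0.1 in the exact test.

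Split by position, first exons took 39.9 ± 4.2% of exonic reads in Dyrk1b livers and 42.8 ± 5.71% in control livers (SD, n = 3 each). Over the positions the exact permutation test gave p = 0.5 to 1, where 3 against 3 libraries allow none below 0.1. Late internal exons, which include Gm10800, took 37.6 ± 6.37% and 34.3 ± 8.81%. Without the peaks of the same 6 genes, a choice made after their values were seen, first exons took 57.5%, 58.7% and 58.1% in Dyrk1b libraries, against 59.7%, 59.3% and 59.3% in control libraries. Last exons took 13.7%, 13.6% and 13.7% in Dyrk1b libraries, against 12.9%, 13.1% and 12.9% in control libraries. The differences of -1.34 and 0.72 points each had p = 0.1 in the exact permutation test, or 0.167 adjusted over the 5 positions. Early internal exons differed by 0.422 points (p = 0.1), late internal by 0.518 (p = 0.2) and single exons by -0.319 (p = 0.2) in the same exact test.

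Each library had 762633 to 1267934 of its reads in peaks, which is 1.67% to 2.62% of the total implied by its RPKM values, with a median of 26 to 47 reads per peak. Libraries of a group differed by more than sampling noise, with a chi-square per degree of freedom of 2.19 to 3.25 over pairs within a group. Over all classes of peaks, 7 of 13 hepatocyte marker genes had a peak. Their 9 peaks had a median log2 change of -0.39 with 1 above 0, and their summed level was 362 to 397 CPM in Dyrk1b livers and 366 to 515 CPM in control livers. Of 51 markers of other liver and blood cells 14 had a peak. Their 18 peaks had a median of 0.31 with 13 above 0, and a summed level of 634 to 663 CPM in Dyrk1b livers and 551 to 635 CPM in control livers. None of these 27 peaks was called, against 0.0317% of all peaks, and markers of cholangiocytes and red cells had no peak. Among exonic peaks the markers were Alb and Spi1, a macrophage transcription factor. The part of cell makeup in the exonic values was not tested.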

How the data were processed

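Peaks came from 1 table that the authors deposited, with 22412 merged peaks over 6 libraries. Its deposited columns are whole read counts per peak, the RPKM values the authors made from them by peak length and library total, their log2 ratio, p-value and FDR, and an annotation of gene, class and exon number. No deposited count is under 1. Per the submitters' processing notes, ChIPseeker, DiffBind and Bowtie2 were used, with the build mm10. Of 1092 exonic peaks whose symbol was found in GRCm38.p6, 10.4% overlapped that gene there, so peak positions are printed as they stand in the table, with no build. Not given in the sources used here are the peak caller, the treatment of duplicates, a transposase shift and the authors' test.

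Tests on the counts used edgeR 4.0.16 (R 4.3.3; TMM, filterByExpr, quasi-likelihood test, no covariate, Benjamini-Hochberg over 22051 peaks), which removed 361 peaks and gave a biological coefficient of variation of 19.9%. The fit was tested on simulated data. Log2 CPM has a prior count of 2. Class means and read shares were compared over libraries by two-sided exact permutation. Alternatives used limma 3.58.1, DESeq2 1.42.0, other scalings, no filter, each library left out and a replicate block. Distance was measured from the peak middle to the start of the annotated transcript, since the deposited distance refers to another start for 417 exonic peaks. Each peak is assigned to 1 gene and ATAC-seq has no strand, so overlapping genes cannot be told apart.

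The peaks and lists were chosen with earlier results of these data known. Named were the exons of Dyrk1b, any called peak, 10 peaks per direction of lowest p and without overlap between groups (at most 1 for a gene, none of predicted genes), the 8 with the highest CPM, the genes with the most exonic peaks and up to 3 peaks of each list. Genes without a symbol are given as counts beyond 2 in each direction. Other peaks of named genes, Pkhd1 and Spi1 were added after their values were seen. Promoter sequences are from RefSeq, GRCm38.p6.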

Additional observations from a re-analysis of the deposited data

How the results depend on the processing

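No alternative called an exonic peak outside Dyrk1b. ENSMUSG00000116974, ENSMUSG00000093394 and Synpo each came near the threshold in DESeq2, with an adjusted p of 0.0505. Part of the weaker peaks had no adjusted p in DESeq2. The median log2 change of exonic peaks, 0.01, was 0.04 with library size only, 0.05 after loess scaling, 0.17 with the library totals behind RPKM and 0.01 to 0.02 with a library left out, and 0.16 over the peaks beyond 3 kb alone. Peaks lower at an unadjusted p under 0.05 numbered 113, and 20 with the library totals behind RPKM. Dyrk1b exon 9 had a log2 change of 2.17 to 3.77 with a library left out and 2.53 in limma-trend, where the call was lost; DESeq2 gave it no adjusted p. First exons minus the 5′ untranslated region was 0.00 after loess scaling and 0.00 to 0.03 with a library left out, and exonic peaks minus introns, -0.02, was 0.06 after loess scaling.

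With a library left out, the exonic share of reads differed by -0.151 to 1.02, and the share by position by -4.84 to 0.433 for first, -0.199 to 0.451 for early internal, -1.68 to 6.5 for late internal, -0.296 to 0.766 for last and -1.17 to 0.0288 for single exons, all in percentage points. The cause of these changes of sign was not tested beyond the values for Gm10800.

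Of 619 values for 46 named peaks, 596 kept their direction and side of the threshold and 23 changed sign, at peaks whose adjusted p in edgeR was 0.686 or more. After loess scaling Gm10800 had -0.07, Hjurp 0.08, Fkbp2 0.03 and Col20a1 -0.05. With the library totals behind RPKM, Hjurp had 0.02 and Alb 0.05, and Tmem254 had -0.01 in limma-trend and under the replicate block. With a library left out, the ranges were -0.13 to 0.41 for Gm10800, -0.17 to 0.44 for Gm10717, -0.22 to 0.47 for Gm10801, -0.25 to 0.22 for Tmem254, -0.35 to 0.01 for Celsr3 exon 1, -0.37 to 0.02 for Itih3, -0.40 to 0.45 for Alb, -0.02 to 0.23 for F12 and -0.13 to 0.44 for Col20a1.

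Libraries with the same replicate number did not deviate together, with correlations of -0.00979, -0.0144 and 0.0073. The replicate block gave Dyrk1b exon 9 a log2 change of 2.75 (adjusted p = 0.00645 in edgeR) and changed no call. A comparison of 3 against 3 libraries allows no exact permutation p below 0.1, or 0.25 under the block. A median of 26 to 47 reads per peak limits what single exonic peaks can show. The contrasts between classes and their alternatives, the peaks beyond 3 kb alone and the values without the 6 genes listed by name were added after seeing the data.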
